A study of Mus musculus with 1922 samples.

Results

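The genes described here are Tgm2, Csmd3, Mlph, Klk8, Rgs1, Agmo, Cables1, Nav3, Pmp22 and Ecscr, 10 of the 23337 gene rows of the count table. They were selected on their measured rise from the embryonic stage E14.5 through postnatal day 7 (P7) to postnatal day 60 (P60) in microglia of these libraries. That rise is therefore given as a description, without a test. The cells were single myeloid cells of the mouse brain, sorted into plates and sequenced with Smart-seq2, a method that covers whole transcripts and uses no molecular identifiers. All of them came from wild-type C57BL/6N animals with no labelled treatment, and the postnatal tissue of each region was pooled from 3 to 8 males.

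The E14.5 group was whole-brain cells of the cKit-CD45+ gate on 3 plates of 36, 34 and 72 cells. The P7 and P60 groups came from 5 regions, namely olfactory bulb (OB), cerebellum (CB), striatum (STR), hippocampus (HIP) and cortex (CTX), each sorted through a CD45low gate, labelled as microglia, and a CD45hi gate, labelled as myeloid cells. The CD45low gate gave 409 cells at P7 and 370 at P60, and the CD45hi gate gave 442 and 185. Choroid plexus (CP) was sorted only through the CD45hi gate, with 63 and 64 cells on 2 plates at P7 and 73 and 68 at P60. Reads of the cells of 1 age, region and gate were summed into a pool, which gave 23 pools, and levels are CPM, the reads of a gene scaled to a common total of gene reads per pool. The labels name no animal, so the 5 regions served as replicates. The spread between them is a spread between regions that may share mice.

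Microglia are the resident macrophages of the brain. They enter it as yolk-sac progenitors, divide through the first postnatal weeks and then take on an adult program marked by genes such as Tmem119 and P2ry12. The CD45hi gate collects other brain myeloid cells, among them border macrophages, monocytes and granulocytes, which carry more CD45 on the surface. The members have unlike functions. Tgm2 encodes transglutaminase 2, an enzyme that cross-links proteins and binds GTP. Klk8 encodes neuropsin, a secreted serine protease, and Agmo an enzyme that cleaves alkyl ether lipids. Rgs1 speeds GTP hydrolysis on G-protein subunits and so dampens chemokine receptor signals, and Cables1 encodes an adaptor between cyclin-dependent kinases and ABL. Mlph encodes melanophilin, which links RAB27A to myosin Va in organelle transport, and Nav3 a neuron navigator that binds microtubule ends. Csmd3, Pmp22 and Ecscr encode membrane proteins: a large protein with CUB and sushi domains, a tetraspan protein best known from peripheral myelin, and a regulator of cell migration described in endothelium.

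RefSeq promoter sequences (build GRCm38.p6) were matched for 4 of the 10 members. They are shown for Mlph, Klk8 and Agmo, a near-silent, a low and a moderate gene at P7. Each line gives the 120 bases before the RefSeq start site, on the plus strand, 5′ to 3′, and capitals mark a motif letter match.
Mlph, chr1:90914980-90915099: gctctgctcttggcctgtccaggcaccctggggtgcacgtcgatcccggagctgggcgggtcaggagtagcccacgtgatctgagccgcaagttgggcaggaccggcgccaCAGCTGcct
Klk8, chr7:43797457-43797576: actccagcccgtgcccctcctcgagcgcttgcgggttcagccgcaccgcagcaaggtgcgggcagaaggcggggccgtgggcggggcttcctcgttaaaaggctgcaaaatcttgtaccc
Agmo, chr12:37241519-37241638: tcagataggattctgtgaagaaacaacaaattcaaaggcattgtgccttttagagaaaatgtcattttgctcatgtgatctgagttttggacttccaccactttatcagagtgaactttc

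The stretches differ in base composition. G and C made up 68.3% of the Mlph stretch and 66.7% of the Klk8 stretch, with 8 and 11 CG steps. The Agmo stretch was 36.7% G and C with 0 CG steps. In windows from 250 bases before to 50 after the start, both strands were searched for GAGGAAGT (a PU.1 site), TGANTCA (AP-1), CAGCTG (an E-box) and TGACGTCA (CRE). Only the Mlph window held any of them, a CAGCTG that begins 9 bases before the RefSeq start. The GENCODE model of Mlph, whose position is given with its values, starts further upstream, so the end of the printed stretch with the CAGCTG lies inside that model. Over all 32851 promoter windows of this length, 3.20% held the PU.1 letters, 7.81% the AP-1 letters, 16.3% the E-box and 1.79% the CRE.

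The labelled cell types were checked against their markers. At least 5 of 8 microglial identity genes (among them Tmem119, P2ry12, Siglech, Sall1, Fcrls, Olfml3 and Gpr34, each with at least 10 reads) were found in 403 of the 409 P7 and 365 of the 370 P60 CD45low cells. The CD45hi gate changed in makeup with age: 275 of 442 cells met that count at P7 and 10 of 185 at P60, 9 of them from OB. At E14.5, 94 cells met it. Pools held 9478293 to 86601890 gene reads, and cells a median of 552656. Spike-in RNA took a median of 8.08% to 14.2% of a cell's reads in the P7 CD45low pools and 13.4% to 19.9% in the P60 pools. Outside CP, every library held cells of 1 postnatal age only, so age and library cannot be told apart.

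Tgm2 (chr2:158116402-158146436, minus strand) had the widest difference between the ages. At P60 its CD45low level was 53.5 CPM in CTX, 149.5 in HIP, 110.5 in STR, 60.1 in CB and 157 in OB. At P7 it was 0 CPM in CTX, HIP and CB, 0.0273 in STR and 0.208 in OB. The E14.5 level, 2.15 CPM, came from 1 cell. Only 17 reads in 409 P7 cells were of Tgm2, against 19982 in 370 P60 cells. Of the 17, 15 came from 1 OB cell and 2 from 1 STR cell. The mean of the 5 pools was 106.1 ± 48.4 CPM at P60 (SD, n = 5) and 0.0471 ± 0.0909 CPM at P7 (SD, n = 5), a ratio of 2252. The size of this ratio turns on the reads of those OB and STR cells. The P60 pools fell into a lower pair, CTX and CB, and a higher trio.

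Klk8 (chr7:43797577-43803826, plus strand) had the most even adult level of the 10 members. Its P60 pools read 57.5 CPM in CTX, 66.2 in HIP, 63.9 in STR, 44.9 in CB and 65.5 in OB. The P7 pools read 11.3, 2.27, 7.11, 3.35 and 5.42 CPM in the same order. The mean was 59.6 ± 8.88 CPM at P60 and 5.88 ± 3.54 CPM at P7 (SD, n = 5), a ratio of 10.13. Klk8 did not climb steadily: its E14.5 level, 19 CPM, lay above all 5 P7 pools. On the 3 E14.5 plates it was 31.3, 0 and 20.6 CPM. A single cell gave all Klk8 reads of the P7 CTX pool. The 2 P60 CB libraries also differed, with 60.3 CPM over 70 cells in one and no read over 21 cells in the other.

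Agmo (chr12:37241641-37582202, plus strand) was low at E14.5, at 4.93 CPM. Its P7 pools read 1.80 CPM in CTX, 28.7 in HIP, 43.6 in STR, 31.3 in CB and 19.2 in OB. At P60 the same regions read 81.5, 66.1, 104.03, 105.5 and 107.2 CPM. The mean went from 24.9 ± 15.6 to 92.9 ± 18.3 CPM (SD, n = 5), a ratio of 3.73, with no overlap of pools.

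Rgs1 (chr1:144242296-144249242, minus strand) had 88 reads at E14.5, or 1.02 CPM, all from 1 cell. It read 41.7 CPM in CTX, 4.44 in HIP, 17.9 in STR, 10.2 in CB and 5.08 in OB at P7, and 133.8, 62.8, 134.7, 194 and 105.8 CPM at P60. The mean was 15.9 ± 15.4 CPM at P7 and 126 ± 48 CPM at P60 (SD, n = 5), a ratio of 7.95. The highest P7 pool, CTX, rested on 5 cells, 1 of which gave 62.6% of its reads. Genes of the immediate early and heat shock response, which tissue handling can induce, moved with age too. The summed level of the 23 listed genes was 1965 to 3834 CPM in the P7 CD45low pools and 3472 to 20387 CPM in the P60 pools. It was highest in P60 CB and lowest in P60 HIP, the regions with the highest and the lowest adult Rgs1 level. Within the P60 cells, Rgs1 reads and that sum had a Spearman correlation of 0.12 (366 cells). Its part in the Rgs1 level was not tested.

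Cables1 (chr18:11839220-11945630, plus strand) was the only member whose postnatal pools overlapped. It was at 17.3 CPM at E14.5. The P7 pools read 17.7 CPM in CTX, 73.97 in HIP, 43.8 in STR, 40.7 in CB and 161 in OB, and the P60 pools 140.4, 157, 216, 179.8 and 86.2 CPM. OB ran against the other 4 regions, with its P7 pool above its P60 pool. The mean was 67.5 ± 56.1 CPM at P7 and 156 ± 48.1 CPM at P60 (SD, n = 5), a ratio of 2.31.

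Mlph (chr1:90915085-90951142, plus strand) was not read in any E14.5 cell. At P7 it was at 0 CPM in CTX and HIP, 2.61 in STR, 0.546 in CB and 4.69 in OB. The P60 pools read 62.6, 122.1, 205, 78.5 and 117 CPM in that order of CTX, HIP, STR, CB and OB. The mean went from 1.57 ± 2.05 to 116.9 ± 55.1 CPM (SD, n = 5), a ratio of 74.5. Striatum held the highest adult level, 3.27 times that of cortex, where 1 of the 5 cells with a read gave 43.4% of the reads.

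Nav3 (chr10:109681259-110456204, minus strand) was well above background in the P7 gate already. It read 126 CPM in CTX, 149.9 in HIP, 90.5 in STR, 51.0 in CB and 98.2 in OB at P7, against 10.08 CPM at E14.5. At P60 the regions read 188, 201, 181, 305 and 186 CPM. The mean was 103.1 ± 37.4 CPM at P7 and 212 ± 52.5 CPM at P60 (SD, n = 5), a ratio of 2.06. Cerebellum went from the lowest pool at P7 to the highest at P60.

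Csmd3 (chr15:47580637-48792063, minus strand) behaved like Mlph. No E14.5 cell held a read, and the P7 pools read 0 CPM in CTX and OB, 0.442 in HIP, 0.273 in STR and 1.24 in CB. The P60 pools read 74.5 CPM in CTX, 141.9 in HIP, 98.98 in STR, 60.5 in CB and 123.1 in OB. The mean was 0.391 ± 0.511 CPM at P7 and 99.8 ± 33.5 CPM at P60 (SD, n = 5), a ratio of 255. Cerebellum, with the highest P7 pool, had the lowest P60 pool.

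Pmp22 (chr11:63128982-63159547, plus strand) had the highest level per kilobase of annotated exons at P60 and the next to Ecscr at P7 (78.4 against 83.1 CPM per kilobase). It read 19.1 CPM at E14.5, from 3 cells. The P7 pools read 164 CPM in CTX, 161 in HIP, 176 in STR, 299 in CB and 122.8 in OB, and the P60 pools 441, 442, 858, 608 and 654 CPM. The mean was 185 ± 67.2 CPM at P7 and 600.5 ± 173 CPM at P60 (SD, n = 5), a ratio of 3.25.

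Ecscr (chr18:35713086-35722356, minus strand) differed least between the ages. It was at 24.3 CPM at E14.5 and read 193.0 CPM in CTX, 155 in HIP, 145.3 in STR, 103.55 in CB and 131 in OB at P7. The P60 pools read 278, 374, 274, 193.2 and 210.3 CPM. The mean was 145.6 ± 32.8 CPM at P7 and 266 ± 71.3 CPM at P60 (SD, n = 5), a ratio of 1.83. The lowest P60 pool and the highest P7 pool all but touched.

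**Figure D1:**
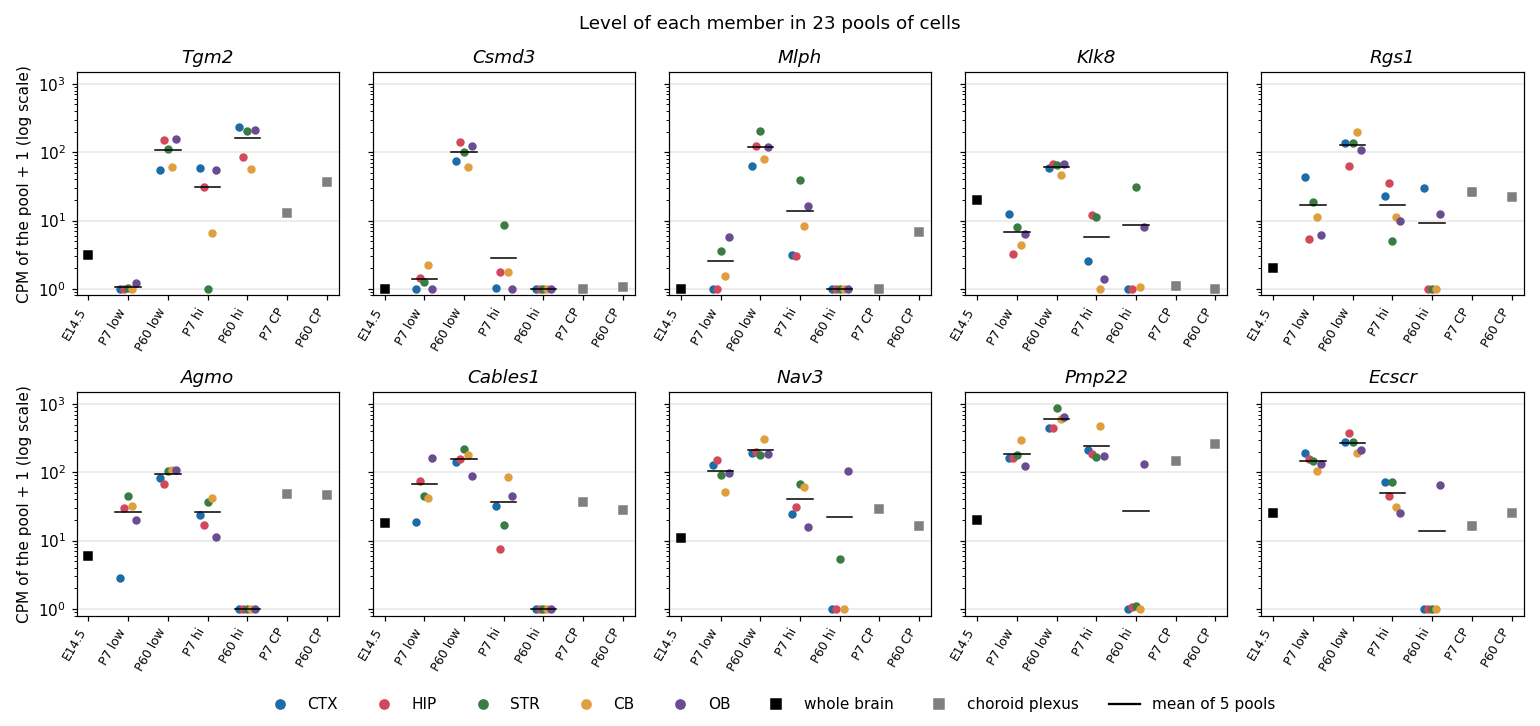
Level of each of the 10 members in 23 pools, as CPM + 1 on a log scale; points are region pools, squares the whole-brain E14.5 and the choroid plexus pools, and bars the mean of 5 pools, with low and hi for the CD45 gates. In the CD45low gate 9 members had all P60 pools above all P7 pools, and in the P60 CD45hi gate Tgm2 lay between 56.6 and 234.7 CPM while Csmd3, Mlph, Agmo and Cables1 were at 0.

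Thus 9 of the 10 members had all 5 P60 CD45low pools above all 5 P7 pools, where 2.98% of the 10466 genes kept by the count filter in this gate did so. The members were chosen on this contrast, so nothing is read from that count. From E14.5 to P7 the members differed more. Rgs1, Cables1, Nav3, Pmp22 and Ecscr had an E14.5 level below all 5 P7 pools, and 16.6% of all kept genes did so. This step too was part of the choice. With the 6 P60 and 9 P7 plates in place of regions, Klk8, Cables1, Nav3 and Ecscr overlapped and the other 6 members did not. The label of genes that come on late fitted the members unevenly. The P7 mean was 0.0444% of the P60 mean for Tgm2, 0.392% for Csmd3 and 1.34% for Mlph, but 43.3% for Cables1, 48.6% for Nav3 and 54.7% for Ecscr. Per kilobase of annotated exons, a scale on which genes can be compared, the P60 levels ran from 5.91 CPM per kilobase for Csmd3 to 152 for Ecscr and 255 for Pmp22.

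CPM divides by all gene reads, and adult microglia had fewer of them per spike-in read. Scaled to spike-in reads instead, an alternative chosen after the data were seen, the pools of Tgm2, Csmd3, Mlph, Klk8 and Rgs1 still did not overlap. Their P60 to P7 ratios were 1052, 158, 40.0, 6.63 and 5.69. The P7 side of the Tgm2 ratio rested on 1 cell each in OB and STR. The ratio was 2.18 for Agmo and 2.05 for Pmp22, with overlapping pools. For Cables1, Nav3 and Ecscr it was 1.20, 1.18 and 1.11. The adult level of these 3 genes was thus higher relative to the other transcripts of a cell and close to the P7 level relative to the spike-in RNA.

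**Figure D2:**
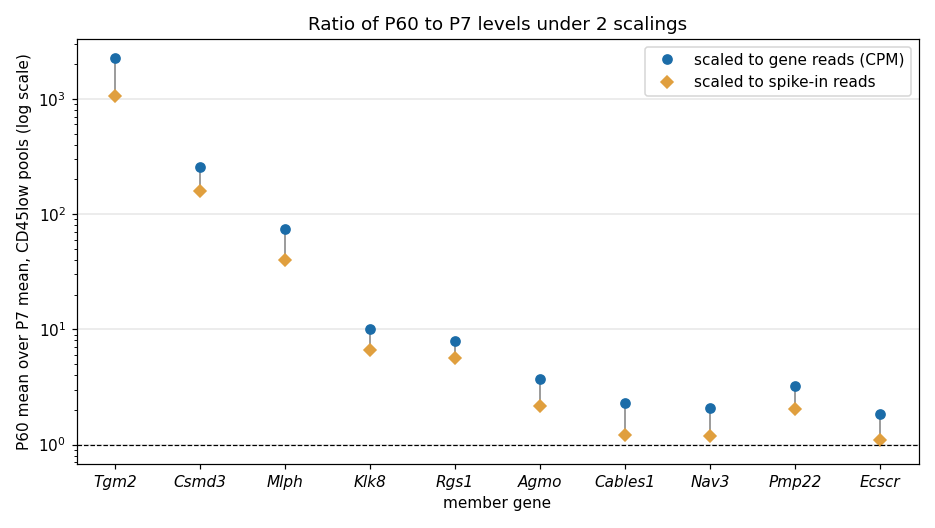
Ratio of the mean P60 level to the mean P7 level of the 5 CD45low pools for each member, on a log scale, with circles for CPM, diamonds for levels per spike-in read and the dashed line at a ratio of 1. The diamonds of Cables1, Nav3 and Ecscr sit at 1.20, 1.18 and 1.11, whereas that of Tgm2 is at 1052.

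Counted over cells, no member was read in all adult microglia, and the shares ran from 11.2% to 56.3%. For these shares every cell was thinned to 200000 gene reads and counted if at least 1 read of the gene was left, and 95% intervals are exact Clopper-Pearson intervals that cover counting error only. Tgm2 was found in 2 of 404 P7 cells (0.495%, 0.060 to 1.78) and 41 of 366 P60 cells (11.2%, 8.16 to 14.9). Csmd3 went from 5 to 95 cells (25.96% of P60 cells, 21.5 to 30.8) and Mlph from 8 to 62 (16.9%, 13.2 to 21.2). Klk8 went from 3.47% to 13.9% of cells, Rgs1 from 3.71% to 21.3% and Agmo from 6.68% to 15.8%. Cables1 went from 15.3% to 25.96%, Nav3 from 24.3% to 44.5% and Pmp22 from 29.95% to 56.3%. For Ecscr the share was 40.8% (36.0 to 45.8) at P7 and 45.1% (39.9 to 50.3) at P60, intervals that overlap. Its higher adult CPM lay in the cells that held it, whose median level was 295 CPM at P7 and 520.0 CPM at P60. Without thinning the P60 shares ran from 11.6% for Tgm2 to 57.3% for Pmp22. At E14.5 the highest shares were 8.45% for Klk8 and 7.04% for Ecscr. Csmd3 and Mlph were found in no E14.5 cell, which allows shares of up to 2.11%.

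**Figure D3:**
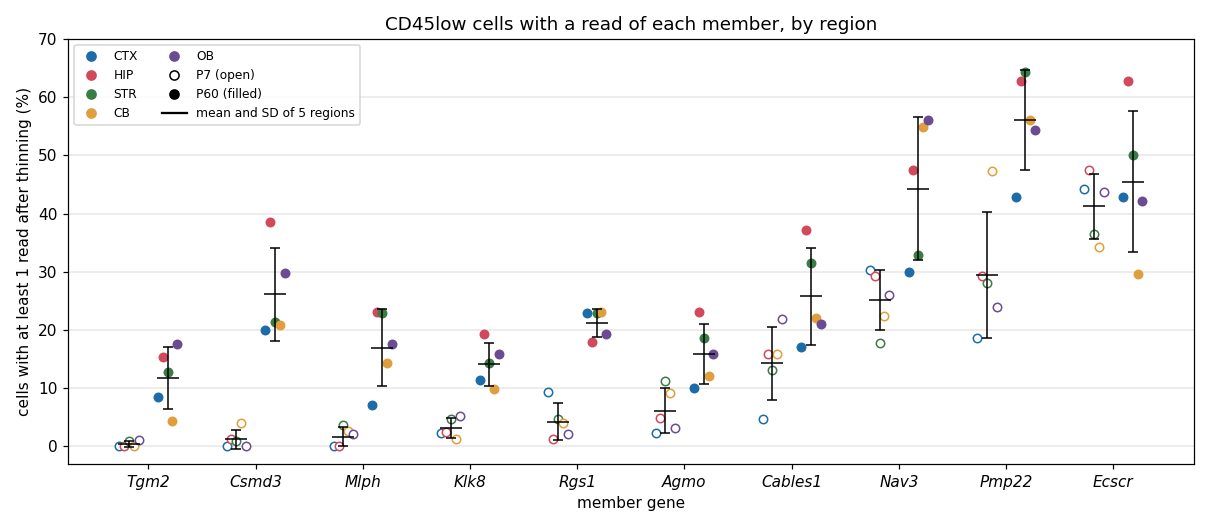
Percent of CD45low cells with at least 1 read of each member after thinning to 200000 gene reads, by region (colour), at P7 (open) and P60 (filled), with the mean and SD of the 5 regions in black. The regions of Ecscr overlap between the ages, at 34.2% to 47.6% and 29.7% to 62.8%, while those of Rgs1 lie apart, at 1.22% to 9.30% and 17.9% to 23.1%.

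Regions differed in these shares at P60. Hippocampus had the highest share for 6 of the members, among them Csmd3 (38.5%), Cables1 (37.2%) and Ecscr (62.8%). Cortex had the lowest share for Csmd3 (20.0%), Mlph (7.14%), Agmo (10.0%), Cables1 (17.1%), Nav3 (30%) and Pmp22 (42.9%). Hippocampal cells also held more detected genes, a median of 1626 against 1191 in cortex, and the part of this in the shares was not tested. Each region is 1 pool, so these differences have no replicate.

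A P60 CD45low cell held reads of 2.77 ± 1.5 of the 10 members (SD over 366 cells), with a median of 3 and a highest count of 8. The P7 mean was 1.28 ± 0.978 (404 cells) and the E14.5 mean 0.289 ± 0.553. No member was read in 12 P60 cells, or 3.28%, against 22.03% of P7 and 76.1% of E14.5 cells. Only 41 P60 cells, 11.2%, held 5 or more, and 22 of these came from hippocampus. Within P60 cells the reads of the members scarcely varied together. A member was read in 41 (Tgm2) to 206 (Pmp22) of 366 cells, so many values were tied at 0 and joint variation could be missed. The 45 pairwise Spearman correlations ran from -0.15, for Agmo with Pmp22, to 0.14, for Klk8 with Cables1, with a median of 0.02 (366 cells, one gate, shared libraries). Csmd3 was read in 95 cells, Mlph in 62 and both in 20. The number of members per cell went with the number of detected genes (Spearman 0.40).

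**Figure D4:**
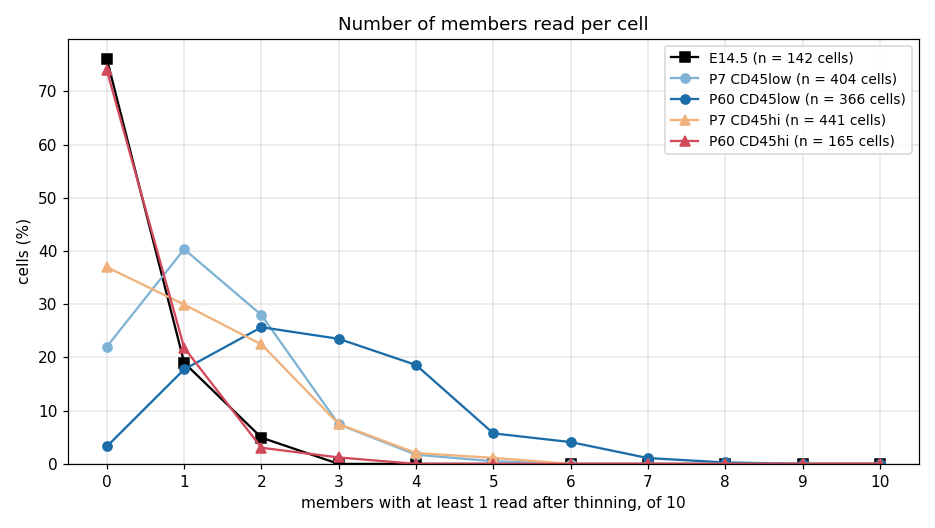
Percent of cells by the number of members, of 10, with at least 1 read after thinning, for E14.5, P7 and P60 CD45low and P7 and P60 CD45hi cells. The P60 CD45low curve peaks at 2 members and reaches 8, and those of E14.5 and P60 CD45hi cells begin at 76.1% and 73.9% of cells with none.

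The CD45hi gate gave an age comparison in pools outside the gate on which the rise was chosen. Mlph, Agmo, Cables1 and Pmp22 were lower at P60 than at P7 in all 5 regions, and no region had a P60 read of Mlph, Agmo, Cables1 or Csmd3. Agmo went from 25.3 ± 13.2 CPM (SD, n = 5) to no read. Cables1 went from 36.3 ± 30 CPM to no read, and Mlph from 12.97 ± 15 CPM to no read. Folds are not given here, because 1 cell can carry most reads of a gene. In this gate at P60, 1 STR cell held 287 Klk8 reads and 1 CTX cell held 413 Rgs1 reads. Counted over thinned cells, 9.30% of P7 CD45hi cells held Agmo, 7.71% Cables1 and 2.72% Mlph. At P60 no cell of 165 held any of them. Pmp22 was at 208 CPM in CTX, 184 in HIP, 167 in STR, 469 in CB and 173 in OB at P7. At P60 it was at 131 CPM in OB and at most 0.106 CPM elsewhere. In OB, the region with 9 of the 10 marker-bearing cells, Nav3 went from 14.98 to 103.3 CPM and Ecscr from 24.5 to 64.1 CPM. In the other 4 regions Nav3 was at most 4.33 CPM and Ecscr at 0 at P60, below their P7 pools.

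Tgm2 went the other way. Its CD45hi level was 57.9 CPM in CTX, 30.3 in HIP, 0 in STR, 5.53 in CB and 54.7 in OB at P7, and 234.7, 85.2, 202, 56.6 and 211 CPM at P60. It was higher at P60 in 5 of 5 regions, by 3.01 ± 1.41 on the log2 scale (SE), with overlapping pools and an adjusted p of 0.30 (edgeR quasi-likelihood test, Benjamini-Hochberg). In that test 0 of the 9 members tested passed at an adjusted p of 0.05, where 0.595% of 10421 genes did. Csmd3 did not pass the count filter there. The count at an unadjusted p under 0.05 was 6 members, where 1992 of the 10421 genes had such a p in the same test. DESeq2 called 8 members and limma 5, so the number called turned on the tool. Without OB, Pmp22 passed in edgeR (adjusted p = 0.00948), with 1 P60 read each in HIP and STR and 0 in CTX and CB. Mlph, Agmo and Cables1, and Pmp22 without OB, passed the count filter only through the P7 pools where they were high. Nothing is therefore read from these calls. Klk8, at 4.66 ± 5.53 CPM at P7 and 7.48 ± 13.1 CPM at P60, was higher at P60 in 3 regions and lower in 2. The 3 rested on 1 P60 cell each, with 1 read in CB, 130 in OB and 287 in STR. The median change of all genes in this comparison was -0.84 on the log2 scale. A loss of marker-bearing cells from 62.2% to 5.41% of the gate moved with the lower levels, and it is tied to age here.

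The split by markers shows where the members were read. Among P7 CD45hi cells with 5 or more microglial markers, 54.9% held Pmp22, 31.3% Ecscr, 26.5% Nav3 and 14.55% Agmo (275 cells). Among those without any marker, 0 of 71 cells held these 4 genes after thinning, which allows up to 4.23%. Tgm2 was reversed, at 1.45% of marker-bearing cells and 21.1% of cells without a marker. At P60 it was read in 23 of 100 CD45hi cells without a microglial marker (95% interval 15.2 to 32.5%), and these cells held no read of Pmp22, Nav3, Ecscr, Agmo, Cables1, Mlph or Csmd3. Before thinning, the median depth was 667209 reads in the P7 marker-bearing cells and 442418 in those without. Cells with at least 10 reads of Ly6c2, the classical monocyte marker, held Tgm2 in 3 of 59 cases at P60 (5.08%, 1.06 to 14.1) against 27 of the other CD45hi cells (25.5%, 17.5 to 34.9). Class limits set by marker counts are ranges, not types, and 4 P60 and 35 P7 cells lay at the limit or 1 marker below it.

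Between the gates at P60, 9 members were higher in CD45low in 5 of 5 regions, with no overlap of pools. The share of all genes with such pools was not counted, so nothing is read from the 9. The P60 CD45low pools also entered the choice of members, so these differences are a description. In CTX, HIP and STR the gates were in separate libraries, so there gate and library cannot be told apart. Cables1, Mlph, Csmd3 and Agmo had CD45low means of 156, 116.9, 99.8 and 92.9 CPM, each against no read in 185 CD45hi cells. No fold is given for these, because single cells can carry most reads of a gene. Pmp22 had means of 600.5 ± 173 and 26.3 ± 58.7 CPM, and Ecscr of 266 ± 71.3 and 12.8 ± 28.7 CPM (SD, n = 5). The CD45low means of Nav3, Rgs1 and Klk8 were 9.86, 15.5 and 7.97 times the CD45hi means, and for Rgs1 and Klk8 single cells gave most of the CD45hi reads. Tgm2 differed by -0.48 ± 0.47 on the log2 scale (SE) and was higher in CD45low in 2 regions and lower in 3. The edgeR test called 6 of the 10 members, where 5.64% of 9641 genes passed in either direction and 2.22% were higher in CD45low. It called 2 to 5 members with a region left out and 0 within libraries that hold both gates. Cables1, Mlph, Csmd3 and Agmo passed the count filter only through the CD45low gate, so nothing is read from the 6 calls.

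At P7 the gates were closer. In CB and CTX they were in separate libraries, so there gate and library cannot be told apart. Ecscr was higher in CD45low in 5 of 5 regions, by 1.62 ± 0.28 on the log2 scale (SE), with means of 145.6 ± 32.8 and 48.2 ± 22.2 CPM (SD, n = 5). The P7 CD45low pools entered the choice of members as well, so the test is not independent of it. Ecscr was the single member of 10 to pass (edgeR, adjusted p = 0.0468), where 0.731% of 11087 genes passed and 0.0631% were higher in CD45low. The call was lost when any 1 of the 5 regions was left out, with adjusted p of 0.0663 to 0.229. DESeq2 called 4 members and limma 2, and without STR the single member to pass was Tgm2 (adjusted p = 0.0319). Nav3 was higher in CD45low in 4 of 5 regions, by 1.48 ± 0.52 on the log2 scale (adjusted p = 0.338). Tgm2 was the member furthest apart in the other direction, with 17 reads in the CD45low pools and 8456 in the CD45hi pools (adjusted p = 0.192). It passed the count filter mainly through the CD45hi pools, where it was high. The setting without STR also left out the 1 CD45hi pool with no Tgm2 read. Nothing is therefore read from the Tgm2 p-values. Rgs1, Agmo and Pmp22 differed by -0.16 ± 0.91, -0.30 ± 0.74 and -0.40 ± 0.18 (SE), none past the threshold.

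In choroid plexus both ages shared 1 library, and with 1 pool per age no test was made. Pmp22 was at 144.4 CPM at P7 and 262 CPM at P60, and its 2 plates read 162 and 117.6 CPM against 216 and 304 CPM. Tgm2 was at 12.0 and 35.7 CPM, with plates at 9.45 and 15.9 against 32.2 and 38.8 CPM. Agmo held 46.9 and 45.1 CPM, Rgs1 25.2 and 21.4 CPM, Cables1 36.1 and 27.4 CPM, Nav3 28.5 and 15.5 CPM and Ecscr 15.6 and 24.7 CPM. The plates of these 5 genes overlapped between the ages, for example at 0.988 and 38.6 CPM against 28.8 and 20.9 CPM for Ecscr. Nav3 was at 32.7 and 0 CPM on the P60 plates, and Cables1 at 53.6 and 8.58 CPM on the P7 plates. Csmd3 and Klk8 were at or below 0.0839 CPM at both ages. Mlph was at 0 and 5.71 CPM, the latter from 2 cells.

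Across the 23 pools the members formed 1 loose block with Tgm2 outside. Values are Pearson correlations of log2(CPM + 1), and the pools share libraries and differ in age, so they are descriptions. Nav3 and Ecscr were the closest pair (0.95), followed by Pmp22 with Ecscr (0.92), Agmo with Cables1 (0.91), Nav3 with Pmp22 (0.90) and Csmd3 with Mlph (0.90). Tgm2 correlated with the mean of the other members at -0.07, Klk8 at 0.62 and each of the rest at 0.78 to 0.83. Genes of at least 20 CPM on average over the pools numbered 6788, a count that includes members. The non-members most like the members' mean included Lrrc3 (0.93), Rgs10 (0.91), Slc1a3 (0.90), C1qa (0.90), Gm10790 (0.89), C1qc (0.89), 1500010J02Rik (0.88) and Plekho1 (0.87). For single members the nearest genes included Gngt2 (0.86) and H2-DMa (0.85) for Tgm2, Cst3 (0.88) after Mlph for Csmd3, and Eif2s2 (0.80) and Susd3 (0.79) for Klk8. Plekho1 (0.83) and C1qa (0.81) were nearest to Rgs1. Lhfpl2 led for both Agmo (0.92) and Cables1 (0.95), followed by Plcd1 (0.91) and Arhgef40 (0.94). Gm10790 (0.95) followed Ecscr for Nav3, Mertk (0.96) and Tspan4 (0.95) led for Pmp22, and Rtn4rl1 (0.97) was near Ecscr.

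**Figure D5:**
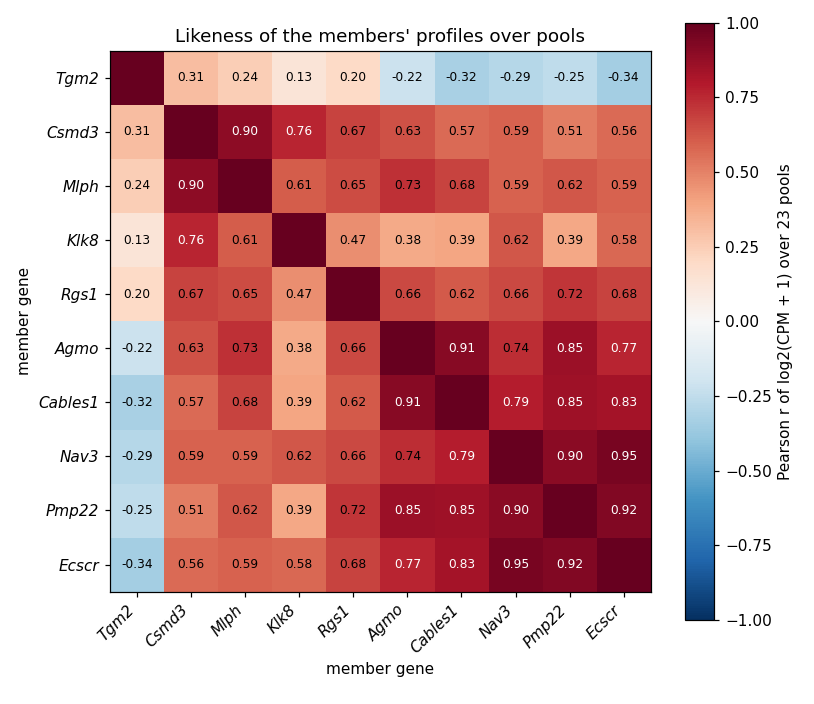
Pearson correlation of log2(CPM + 1) between each pair of members over 23 pools, from -1 (blue) to 1 (red). The row of Tgm2 holds values from -0.34 to 0.31, and the block of Nav3, Pmp22 and Ecscr holds values of 0.90 to 0.95.

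Lists of relatives and partners of the members were read by counts over their kept genes, beside the 2.98% of all kept genes with P60 CD45low pools above the P7 pools and the 5.02% with pools below. Among 12 other RGS genes, 5 were kept and 2 lay above, Rgs10 (290.1 ± 84 to 709 ± 155 CPM) and Rgs2 (148.96 ± 37.3 to 438 ± 162 CPM). Rgs10 passed between the gates at P60. No other kallikrein was read in the P60 CD45low pools (11 of 11 at 0), and 5 of 7 other transglutaminase genes were at 0 and 1 was kept, with Tgm4 the highest at 6.50 ± 5.80 CPM. Of the 2 kept neuron navigator and CSMD relatives, Nav2 lay above, at 8.24 ± 9.04 and 56.4 ± 22.8 CPM, and Nav1 overlapped, while Csmd1, which was not kept, was at 0 at P60. The Pmp22 relative Emp3 was at 95.5 ± 50 CPM at P7 and 20.1 ± 18.3 CPM at P60, with overlapping pools.

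Of the partners of melanophilin, Rab27a stood at 21.6 ± 13.2 and 21.9 ± 15.6 CPM at P7 and P60. Myo5a was the 1 of 3 kept genes in that list with P60 pools below the P7 pools, at 61.3 ± 47.8 and 5.24 ± 8.22 CPM. In the ether lipid list, 1 of 12 kept genes lay above and 1 below. The former is Lpcat2, which makes platelet-activating factor (1153 ± 241 to 1850.2 ± 193 CPM), and it passed between the gates at P60. None of 5 kept CABLES and CDK5 partners lay above or below, with Abl1 the highest at 79.3 ± 36.4 and 86.9 ± 49.2 CPM. For comparison, 13 of 22 homeostatic microglial genes and 4 of the 8 identity genes, all kept, lay above, and 10 of 12 kept cell cycle genes lay below.

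Markers of cells in which some members are best known stayed low in the CD45low pools. For Ecscr, the 10 endothelial genes summed to 9.65 to 40.6 CPM at P7 and 0.158 to 71.6 CPM at P60, with 5 of 10 at 0 at P60, Cldn5 among them. For Pmp22, the 10 oligodendrocyte and Schwann cell genes summed to 79.7 to 193 CPM and 91.8 to 185 CPM, mostly Cnp, with 7 of 10 at 0 at P60. For Nav3, Csmd3 and Klk8, the 10 neuronal genes summed to 4.89 to 37.6 CPM and 0 to 27.05 CPM. At P60 the border macrophage genes summed to 0 to 7.56 CPM and the monocyte genes to 0 to 6.21 CPM. Neutrophil and astrocyte sums of up to 882 and 425 CPM at P60 came from Csf3r and Slc1a3, with S100a8 at 0.0226 CPM at most and Gfap at 0 there.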

How the data were processed

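Single-cell RNA-seq of sorted mouse brain myeloid cells was analysed for 10 genes. The tools named in the submitters' processing notes are HTSeq, Picard, STAR 2.5.3a and Trim Galore 0.4.3, with build mm10. How genes were annotated and counted is not given in the sources used here, so reads of overlapping genes (Tgm2 and Rprd1b, Ecscr and 1700066B19Rik) may be shared. The deposited table holds raw counts, whole numbers of reads for each cell and gene, plus 92 spike-in rows. Per the labels, 1816 of 1922 cells passed quality control and were used, at 92237 to 2262218 gene reads each. Doublets were not called.

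Cells of the same age, region and gate were added up, which gave 23 pools. CPM used the gene total as library size. For CD45hi ages and for gates, edgeR 4.0.16 was used (robust quasi-likelihood test, TMM, default filter by group, region as a block; Benjamini-Hochberg threshold 0.05 over all genes tested) in R 4.3.3; alternatives used DESeq2 1.42.0, limma 3.58.1, other filters, cells, scalings and left-out regions. The fit was also run on simulated counts with the same dispersion for every gene and no differences between regions. These pools differ from that setting, so nothing is read from the run. Gene positions are of GENCODE vM21 (GRCm38, the same sequence as mm10). The members and lists were chosen with earlier results of these data known. The text names all members, the 10 genes nearest to their mean profile, the 2 nearest to each, and per list counts and up to 3 of its genes highest in P60 CD45low. Some genes this rule names are not reported here.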

Additional observations from a re-analysis of the deposited data

Results flagged for a closer look

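Within groups of 5 region pools, 8 of 36 member and group combinations had a pool set apart from the other 4 by a Dixon test. Its cutoff flags about 1 in 20 groups of normally distributed values by chance. In several flagged groups the other pools were at or near 0, where that rate does not hold. Nothing is therefore read from the count of 8. Nav3 stood at 305 CPM in the P60 CD45low pool of CB, against 181 to 201 CPM in the others. Pmp22 stood at 469 CPM in the P7 CD45hi pool of CB, against 167 to 208 CPM. In the P60 CD45hi gate the OB pool stood apart for Nav3 (103.3 CPM), Pmp22 (131 CPM) and Ecscr (64.1 CPM), where the other 4 pools were at most 4.33, 0.106 and 0 CPM, and OB held 9 of the 10 marker-bearing cells of that gate. Klk8 stood at 30.3 CPM in the P60 CD45hi pool of STR, all of it from 1 cell, and Csmd3 at 7.75 CPM in the P7 CD45hi pool of STR, 85.1% of it from 1 of 3 cells. Tgm2 stood at 0.208 CPM in the P7 CD45low pool of OB, which is 15 reads, against at most 0.0273 CPM.

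For 3 members the direction of the age difference was opposite in the 2 gates in all 5 regions, and this difference between gates was not tested. The members were chosen on the CD45low rise, so that direction was set in advance, and the share of all genes with opposite directions was not counted. Cells with 5 or more microglial markers made up 62.2% of the CD45hi gate at P7 and 5.41% at P60. The part of this in the lower levels was not tested. The P60 minus P7 difference of means was 115.3 CPM in CD45low and -12.97 CPM in CD45hi for Mlph, 67.9 and -25.3 CPM for Agmo, and 416 and -214 CPM for Pmp22.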

How the results depend on the processing

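The pools are regions of pooled mice and the ages were sequenced in separate libraries, so p-values measure spread between regions only. No paired analysis was possible by replicate number, because these numbers only name cells, and the fits paired pools by region instead. The 9 members with P60 CD45low pools above P7 pools were 5 when scaled to spike-in reads, an alternative chosen after the data were seen. Calls are given as percent of the 23337 genes. For age in CD45hi, 0.266% and 0 members were called. DESeq2 size factors gave 0.501%, DESeq2 13.3% and 8 members, limma 3.79% and 5, no region block 2.52% and 3, and cells with fewer than 5 markers 0.00429%, which is 1 gene. With a region left out, 0 (without HIP) to 0.531% (without OB) and 0 to 1 members (1 without OB) were called. For the gates at P60, 2.33% and 6 members were called. DESeq2 gave 12.7%, limma 5.38%, no region block 3.69%, and libraries that hold both gates (2 regions) 0.0986% and 0 members. With a region left out, 0.913% to 1.4998% and 2 to 5 members were called. For the gates at P7, 0.347% and 1 member were called. DESeq2 gave 3.83% and 4 members, limma 1.56% and 2, no count filter 0.583%, no region block 0.608% and 2, and libraries that hold both gates 0.0514% and 0. With a region left out, 0.107% to 0.386% and 0 to 1 members were called. The share of genes called higher in CD45low at P60 was 214 of 544, and 1857 of 2967 by DESeq2.

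Of 338 recomputed log2 differences of single members, 267 kept their direction and side of the threshold, 30 passed it newly, 31 no longer passed and 10 changed sign, none of them called. Klk8 between the CD45hi ages was -0.73 with limma and, with a region left out, ran from -2.56 (OB) through -2.28 (CB) and -1.97 (STR) to 1.73 (HIP). Agmo between the gates at P7 was 0.10 with limma, 0.29 with all cells, 1.11 in libraries that hold both gates, and -0.64 (without OB) to 0.32 (without CTX). Rgs1 there ran from -0.71 (without STR) to 0.48 (without HIP), with 0.10 without OB. The cause was not tested.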
